A study of Mus musculus with 17 samples.

Results

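Receptors for the transmitters that keep the brain awake were followed in the hippocampus of mice after sleep loss: the receptors of noradrenaline, acetylcholine, dopamine, histamine, orexin and serotonin. They were chosen by gene symbol, as every probe set that carried a single symbol made of Adra, Adrb, Chrm, Chrna, Chrnb, Drd, Hrh, Hcrtr or Htr followed by a digit. The rule found 40 genes of 18193 measured, read by 68 of 45037 probe sets, a probe set being a group of short probes against the same transcript. For a gene with several probe sets, the brightest on average over the 17 arrays stood for it. No Adrb gene is analysed here. The other 8 symbol families gave between 2 and 13 genes each, and these are not complete: further members of the Adra, Chrm and Htr families, among others, are not analysed here.

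RNA came from the dissected hippocampus of adult male C57BL/6J mice, 1 animal and 1 Affymetrix array each. In the sleep-deprived group 8 mice were kept awake for 5 h in the home cage by gentle handling, and 9 mice were left undisturbed, with dissections alternating between the groups. All 17 were housed singly and had been handled daily for 6 days beforehand; their age is given as 2 months for each sample and as 2 to 4 months in the housing protocol. No group was handled and then allowed to sleep, so sleep loss and handling cannot be told apart, and in whole tissue fewer cells of a type and less RNA per cell cannot be told apart either.

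The neurons that make these transmitters lie outside the hippocampus, in the brainstem, basal forebrain and hypothalamus, and send axons into it. The firing of noradrenaline, serotonin, histamine and orexin neurons is high in waking and falls in sleep. Acetylcholine release is high in waking and high again in rapid eye movement sleep. Most of the receptors are coupled to G proteins that raise or lower cyclic AMP or release calcium, while the nicotinic acetylcholine receptors and the receptors of Htr3a and Htr3b are ion channels built of several subunits.

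Of the 40 receptor genes, only Htr1a passed an adjusted p of 0.05 in limma, and it was higher after sleep deprivation. It encodes a serotonin receptor that lowers cyclic AMP, opens potassium channels and inhibits the hippocampal principal neurons that carry it. No receptor gene was called lower in limma; 4 had an unadjusted p under 0.05 in that direction, and an exact rank-sum test called 1 (Chrnb2). Over all 18193 genes 1.25% were called higher and 2.73% lower, so that 1 called receptor of 40 lay near the share among genes in general. At an unadjusted p under 0.05 in limma there were 6 receptor genes, 2 higher and 4 lower, or 15% of 40, against 18.6% of all genes. Of the 18 receptor genes above background, as defined below, 5 had such a p-value (27.8%), 1 higher and 4 lower. Of the 22 near background 1 had (4.55%). When only genes above background were fitted, 2772 of 11998 had such a p-value.

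The start of the Htr1a gene is shown because this gene carries the result, and that of Chrnb2 because this nicotinic subunit gene came nearest to the threshold among the genes that did not pass. Both run 5′ to 3′ on the strand of the gene, over a window that spans the annotated start, from RefSeq (GRCm38.p6). Htr1a lies at chr13:105443443-105443742 on the plus strand and Chrnb2 at chr3:89764583-89764882 on the minus strand. Capitals mark matches, on either strand, to the GC box GGGCGG, the cyclic AMP element TGACGTCA, its core TGACG, the core TGTTCT of the glucocorticoid receptor site and the E-box CACGTG.
Htr1a: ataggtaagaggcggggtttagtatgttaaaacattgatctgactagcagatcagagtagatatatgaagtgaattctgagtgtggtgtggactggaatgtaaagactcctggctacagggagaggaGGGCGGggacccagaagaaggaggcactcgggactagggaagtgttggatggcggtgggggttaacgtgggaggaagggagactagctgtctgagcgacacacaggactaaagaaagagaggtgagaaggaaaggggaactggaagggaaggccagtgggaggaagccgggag
Chrnb2: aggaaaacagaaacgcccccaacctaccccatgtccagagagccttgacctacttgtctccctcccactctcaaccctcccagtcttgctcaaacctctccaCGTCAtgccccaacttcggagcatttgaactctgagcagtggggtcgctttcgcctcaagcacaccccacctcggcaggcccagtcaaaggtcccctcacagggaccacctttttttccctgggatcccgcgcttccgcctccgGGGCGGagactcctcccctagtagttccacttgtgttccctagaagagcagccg
In the Htr1a window only the GC box occurred, once, at position -123 from the start site. Chrnb2 held a GC box at -4 and the core of the cyclic AMP element, read on the opposite strand, at -148. The sequence table had 43 promoters for 32 of the 40 receptor genes. A GC box was present in 22 of the 43 promoters (35.7% of all 32851 promoters), the core TGACG in 5 (20.8%), TGTTCT in 4 (19.0%), CACGTG in 2 (7.15%) and the full cyclic AMP element, which contains the core, in 0 (1.79%). These are matches of letters in short windows and say nothing on which factors bind.

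Signals are deposited log2 values, and a difference is the sleep-deprived mean less the undisturbed mean on that scale, negative where sleep-deprived animals were lower. A receptor gene was marked near background when its mean lay below 6.01, the 95th percentile of 134 genes of olfactory, vomeronasal and taste receptors, keratin-associated proteins and defensins, which brain tissue is not known to use widely. By this mark 18 receptor genes were above background and 22 near it; with the 75th percentile of the same genes as limit, 9 were near it. Probe sets differ in how strongly they bind, so the signal of one receptor was not ranked against that of another.

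Across the arrays of the series, medians lay between 6.14 and 6.22. Of the hippocampal markers, 9 of 10 for dentate granule cells and all 10 measured for pyramidal cells were above background. So were all 8 measured markers of striatal neurons and 5 of 7 of neocortical neurons, so this mark does not set hippocampus apart from those tissues. The arrays fell into sets of 12 and 5 by the mean of 14 choroid plexus markers, the 5 (2 undisturbed, 3 sleep-deprived) lying at 6.54 to 7.09 and the other 12 at 5.47 to 5.99. The signal of the 3′ minus that of the 5′ control probe sets, a sign of RNA integrity, ran from 0.199 to 0.302 in 16 arrays and reached 0.417 in sleep-deprived replicate 5.

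Htr1a separated the groups completely. Undisturbed arrays ran from 8.07 through a median of 8.31 to 8.44, and sleep-deprived arrays from 8.52 through 8.61 to 8.70. The lowest sleep-deprived animal thus lay above the highest undisturbed one, a separation that 0.731% of all genes showed and no other receptor gene. Means were 8.30 ± 0.11 (SD, n = 9) and 8.61 ± 0.055 (SD, n = 8), so that sleep-deprived animals were 0.31 higher on the log2 scale, or 1.24-fold (SE 0.046, limma adjusted p = 0.00042).

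The second Htr1a probe set, which is dimmer, gave nearly the same difference. Its undisturbed arrays ran from 7.41 through 7.60 to 7.78 and its sleep-deprived arrays from 7.67 through 7.89 to 8.03. All 8 sleep-deprived animals lay above the undisturbed mean, though the groups overlapped (log2 difference 0.29, SE 0.063, limma adjusted p over all probe sets = 0.017). These were the only 2 of the 68 receptor probe sets that passed, where 1.81% of all probe sets did. The difference between the 2 probe sets was -0.022 (SE 0.063, limma adjusted p = 0.91).

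**Figure D1:**
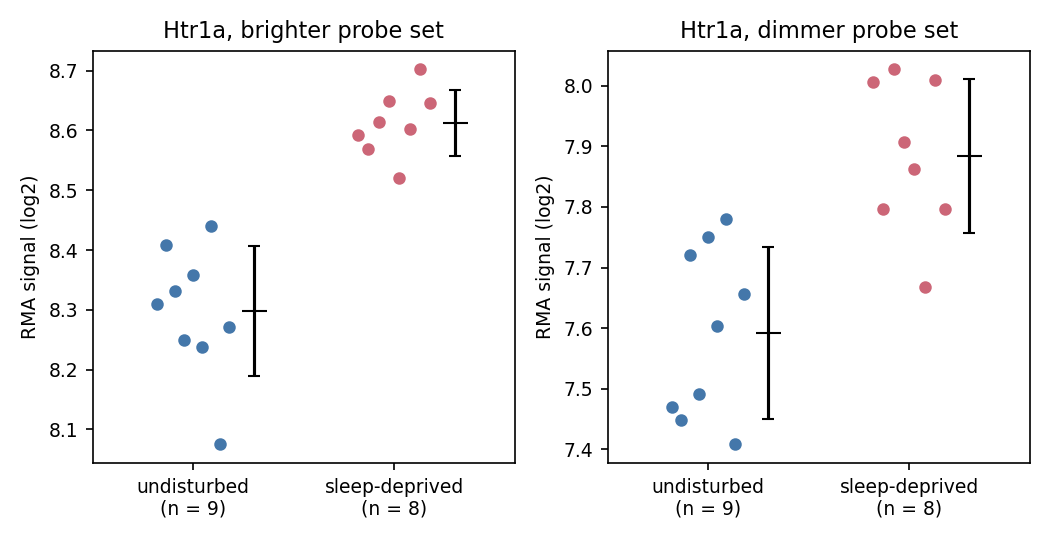
Deposited RMA signal (log2) of both Htr1a probe sets, 1 point per animal, with the mean and SD of each group (black). In the brighter probe set the 8 sleep-deprived animals (8.52 to 8.70) all lie above the 9 undisturbed animals (8.07 to 8.44), while in the dimmer one the groups overlap between 7.67 and 7.78.

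The Htr1a call did not rest on the choroid plexus-rich arrays or on 1 animal. Without the 5 choroid plexus-rich arrays it was 0.30 (limma adjusted p = 0.025), and with any 1 of the 17 animals left out it lay between 0.29 and 0.33 (adjusted p up to 0.0014). Marker genes of the principal neurons are given beside this result, and their part in it was not tested. None of 10 dentate granule cell markers was called higher and 1 was lower, with a list mean of 8.92 to 9.22 in undisturbed and 8.82 to 9.13 in sleep-deprived arrays. Of 10 pyramidal cell markers none was higher and 1 was lower (9.31 to 9.47 and 9.21 to 9.44). In each list 10% were called, beside 3.97% of all genes and 5.58% of those above background.

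The Htr1a difference was set beside those of the other receptors, a comparison chosen after its value was seen. In each array the signal of another receptor gene was subtracted from that of Htr1a, and the 2 groups were compared by an exact two-sided permutation test over all 24310 assignments of the arrays. Against each of the 17 other receptor genes above background, the Htr1a difference was larger, by 0.19 (Hrh2) to 0.48 (Drd1), in all 8 sleep-deprived animals relative to the undisturbed mean. All 17 comparisons passed (permutation p adjusted over the 17, 0.00018 to 0.023). Htr1a was picked as the only called receptor gene on these same arrays, so these p-values cannot show that it stands apart. The largest of these p-values belonged to Htr1b, another serotonin receptor gene, whose own difference was 0.051 (limma adjusted p = 0.77).

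The other serotonin receptor genes analysed showed no call. Of 13 Htr genes 1 was called (7.69%, beside 3.97% of all genes), 9 had positive and 4 negative differences, and 5 were near background. Htr2c, a receptor that releases calcium through phospholipase C and is abundant in choroid plexus, had the largest negative difference of the family. Its undisturbed arrays ran from 9.32 through 9.58 to 9.68 and its sleep-deprived arrays from 9.01 through 9.46 to 9.55, with 7 of 8 sleep-deprived animals under the undisturbed mean (-0.15, SE 0.068, limma adjusted p = 0.23). Its dimmer probe set gave -0.16 (limma adjusted p over all probe sets = 0.37). The lowest value came from sleep-deprived replicate 2 in both probe sets, at 9.01 and 7.08, and without that animal the difference was -0.096 (limma adjusted p = 0.40).

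Choroid plexus markers varied widely between animals, and Htr2c was set beside them. Ttr, a transport protein gene of that tissue, ran from 7.12 to 14.3, all 14 measured markers had positive differences and none was called. The list mean ran from 5.47 to 6.84 in undisturbed and from 5.49 to 7.09 in sleep-deprived arrays, with 6 of the 14 near background. With both groups together, Htr2c ran from 9.33 through 9.52 to 9.68 in the 5 choroid plexus-rich arrays. In the other 12 it ran from 9.01 through 9.53 to 9.65. Among undisturbed arrays the 2 rich ones lay at 9.65 and 9.68, the others at 9.32 to 9.65. Among sleep-deprived arrays the 3 rich ones lay at 9.33, 9.50 and 9.52, the others at 9.01 to 9.55. Whether the sets differed within a group was not tested. Because the arrays fell into these sets no pooled correlation is given, and the correlations below do not separate the groups. Within the 12 arrays no relation between the markers and the brightest Htr2c probe set passed (Pearson r = -0.039, permutation p = 0.91; Spearman rho = 0.049, permutation p = 0.89), also without the 2 arrays farthest from the median (r = 0.017). For both Htr2c probe sets against the marker mean or Ttr, 4 relations in all, adjusted permutation p-values were 0.78 or higher.

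**Figure D2:**
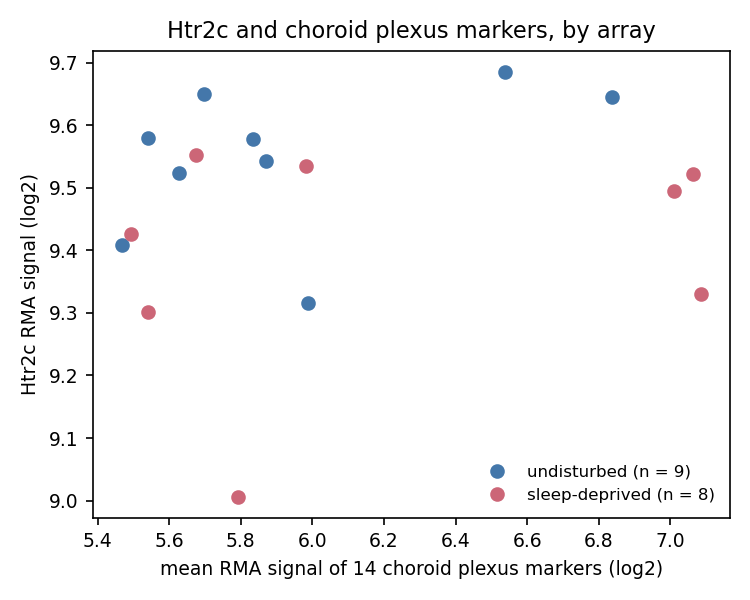
Htr2c signal (log2) against the mean signal of 14 choroid plexus markers (log2), 1 point per array, undisturbed in blue and sleep-deprived in red. With both groups together, the 5 arrays at 6.54 and above span 9.33 to 9.68 in Htr2c, and the other 12 span 9.01 to 9.65.

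The remaining serotonin receptor genes above background differed by less than their spread could resolve. Htr4 and Htr7, which raise cyclic AMP, lay at 0.10 (adjusted p = 0.35 in limma) and -0.081 (adjusted p = 0.49), and Htr5b and Htr5a at 0.053 (adjusted p = 0.64) and 0.067 (adjusted p = 0.53). Htr3a, the obligatory subunit of the serotonin-gated ion channel which in hippocampus is known from interneurons, was 7.64 ± 0.078 (SD, n = 9) in undisturbed and 7.59 ± 0.12 (SD, n = 8) in sleep-deprived animals (limma adjusted p = 0.56). None of 12 GABAergic interneuron markers was called. Htr1d, Htr1f, Htr2b, Htr3b and Htr6 were near background, with differences between -0.0011 and 0.081.

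Acetylcholine receptors gave 15 genes, muscarinic and nicotinic together, and no call. Chrnb2, the beta subunit of the most common brain nicotinic receptor, ran from 8.32 through 8.44 to 8.55 in undisturbed and from 8.10 through 8.28 to 8.40 in sleep-deprived arrays. All 8 sleep-deprived animals lay under the undisturbed mean and the groups overlapped, with means of 8.42 ± 0.083 (SD, n = 9) and 8.27 ± 0.091 (SD, n = 8) (-0.15, SE 0.046, limma adjusted p = 0.066). It passed under an exact rank-sum test (adjusted p = 0.046), after median centring of the arrays (limma adjusted p = 0.047) and when genes near background were left out of the fit (adjusted p = 0.038). These were 3 of 14 alternatives other than leaving out 1 animal. Those in which Chrnb2 did not pass included quantile normalization, cyclic loess, the mean of all probe sets and the fit without the choroid plexus-rich arrays. Chrnb2 also passed without undisturbed replicate 5 (-0.17, limma adjusted p = 0.046) or sleep-deprived replicate 4 (-0.17, adjusted p = 0.041), and in none of the other 15 cases with 1 animal left out. A dimmer Chrnb2 probe set, at a mean of 6.20, gave -0.0078 (limma adjusted p over all probe sets = 0.98); the 2 probe sets were not separated (difference 0.14, SE 0.084, adjusted p = 0.47).

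The alpha partners of Chrnb2 did not pass. Chrna4, with which it forms that receptor, lay at -0.037 (limma adjusted p = 0.81), with sleep-deprived arrays spread from 6.94 to 7.64 and undisturbed arrays from 7.25 to 7.53. Without sleep-deprived replicate 6 the Chrna4 difference was 0.022. Its 2 dimmer probe sets gave -0.051 and, near background, -0.19 with all 8 sleep-deprived animals under the undisturbed mean (limma adjusted p over all probe sets = 0.11 for the latter). Chrna5, an accessory subunit of the same receptors, lay at 0.058 (adjusted p = 0.71). Chrna7, whose product forms calcium-permeable channels by itself, ran from 9.23 through 9.39 to 9.47 and from 9.22 through 9.33 to 9.41 (-0.041, SE 0.043, limma adjusted p = 0.64).

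The other 8 nicotinic subunit genes were near background. They included Chrna3 and Chrnb4, the typical pair of the medial habenula, at 0.091 and 0.0015. Among 8 habenula markers none was called and 5 were near background, among them Pou4f1 and Gpr151 at mean signals of 3.75 and 4.81. Tac2, Nwd2 and Calb2 were above background, at 6.75, 8.49 and 9.72. The muscle subunit genes Chrna1 and Chrnb1 lay at -0.027 and 0.067.

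Among muscarinic receptors, Chrm1, which couples to phospholipase C in pyramidal neurons, was lower without passing. Undisturbed arrays ran from 10.64 through 10.84 to 10.98 and sleep-deprived arrays from 10.48 through 10.74 to 10.88 (-0.12, SE 0.056, limma adjusted p = 0.24). Its dimmer probe set gave -0.14 with all 8 sleep-deprived animals under the undisturbed mean (limma adjusted p over all probe sets = 0.17). Chrm3 and Chrm4 were near background, at 0.061 and 0.029.

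Drd1, the dopamine receptor that raises cyclic AMP, had the largest negative difference of the 40 genes. Undisturbed arrays ran from 6.73 through 6.92 to 7.11 and sleep-deprived arrays from 6.40 through 6.79 to 7.03, so that the groups overlapped widely (-0.17, SE 0.079, limma adjusted p = 0.26). The dimmer Drd1 probe set gave -0.25 (SE 0.074), with 6.44 through 6.73 to 7.09 in undisturbed and 6.34 through 6.46 to 6.69 in sleep-deprived arrays, and all 8 sleep-deprived animals under the undisturbed mean (limma adjusted p over all probe sets = 0.085). Markers of striatal medium spiny neurons, which carry this receptor in a neighbouring structure, had list means of 7.82 to 7.93 and 7.76 to 7.95 and no call among 8 genes.

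Drd2, Drd3 and Drd4, receptors that lower cyclic AMP, were near background. Drd4 ran from 5.13 through 5.35 to 5.40 in undisturbed and from 5.25 through 5.44 to 5.58 in sleep-deprived arrays (0.11, SE 0.052, limma adjusted p = 0.24), and Drd2 lay at 0.12 (adjusted p = 0.39). These were among 19 of 22 genes near background with a positive difference.

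Histamine receptor genes held 3 members above background and no call. Hrh3, a presynaptic receptor that limits the release of histamine and other transmitters, ran from 8.44 through 8.70 to 8.85 and from 8.44 through 8.60 to 8.72 (-0.081, SE 0.052, limma adjusted p = 0.42). Hrh2, which raises cyclic AMP, lay at 0.13 (SE 0.066, adjusted p = 0.31). Hrh1, the receptor blocked by sedating antihistamines, lay at -0.018 (adjusted p = 0.91). Its sign changed between settings, up to 0.046 with its most variable probe set.

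The noradrenaline receptor gene Adra2c, a receptor that lowers cyclic AMP, ran from 8.00 through 8.07 to 8.26 and from 8.04 through 8.11 to 8.15, the smallest absolute difference of the 18 genes above background (0.014, SE 0.043, limma adjusted p = 0.90). Its 95% interval was -0.075 to 0.10. Adra1b, which couples to phospholipase C, was near background (0.11, adjusted p = 0.33).

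Both orexin receptor genes were near background in this tissue. Hcrtr2 ran from 5.50 through 5.74 to 5.97 in undisturbed and from 5.55 through 5.77 to 6.06 in sleep-deprived arrays (0.079, limma adjusted p = 0.60), and without the choroid plexus-rich arrays its difference was -0.070. Hcrtr1 lay at 0.014 (adjusted p = 0.91). Hcrt, the gene of the transmitter itself, was also near background, at a mean of 5.73.

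**Figure D3:**
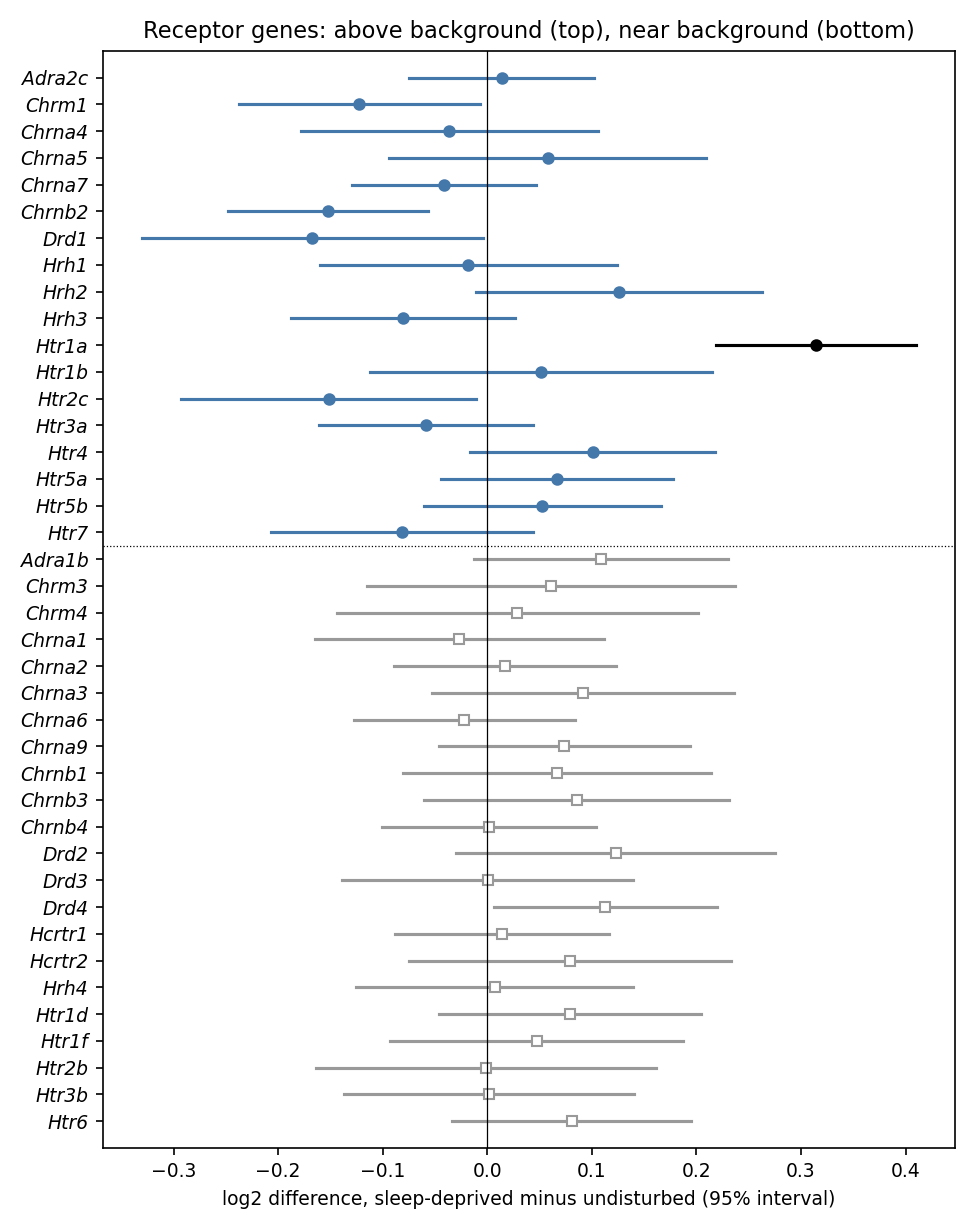
Log2 difference (sleep-deprived minus undisturbed) of all 40 receptor genes with its 95% interval; filled circles are the 18 genes above background, open squares the 22 near it, and the called gene Htr1a is black. Htr1a stands at 0.31 while the other 39 lie between -0.17 and 0.13.

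For the brightest probe sets of the 17 uncalled genes above background, the 95% intervals reached from -0.33 to 0.26. A dimmer probe set can reach further, as in Drd1, where the interval of the second probe set was -0.40 to -0.096. For the 22 genes near background the intervals reached from -0.17 to 0.28, but dim probe sets show compressed differences, so those bounds do not hold for the transcripts.

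Signs depended on signal level, in the receptors as in all genes. Of the 18 receptor genes above background 8 had positive differences, with a median of -0.027, beside a median of -0.023 over 11998 genes above background. Of the 22 near background 19 were positive, with a median of 0.054, beside 0.040 over 6195 genes near background. Over all 40 genes 27 were positive, and this fell to 20 after quantile normalization, cyclic loess or median centring, with 12, 12 and 13 of the 22 dim genes. The tendency of dim receptor genes to be positive was therefore not stable to scaling.

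Further probe sets read the same receptors in the same RNA on the same arrays. There were 28 of these in 21 genes, and 22 had the sign of the brightest probe set. Of the 9 that were above background, in 9 genes, all 9 had that sign, though that of Chrnb2 lay near 0, at -0.0078. The share of such pairs with the same sign over all genes is not given here. None of the 28 differed from the brightest probe set of its gene in limma (lowest adjusted p = 0.32; 1 had an unadjusted p under 0.05, a dim Chrna4 probe set), where 1.3% of such pairs passed over all genes.

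**Figure D4:**
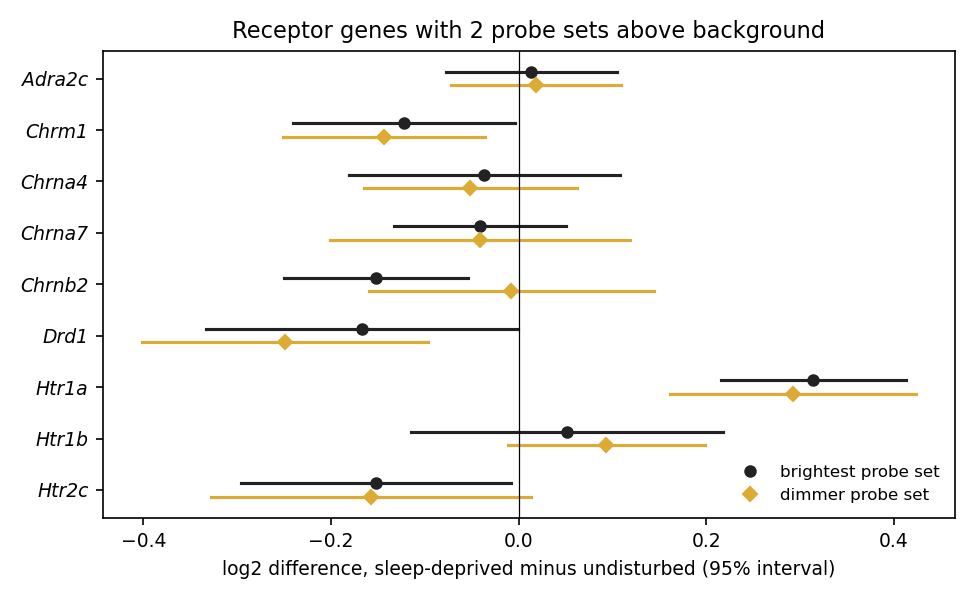
Log2 difference (sleep-deprived minus undisturbed) with its 95% interval for the 9 receptor genes with 2 probe sets above background, brightest as black circles and dimmer as yellow diamonds. Both probe sets of a gene lie on the same side of 0 in all 9, from -0.25 in Drd1 to 0.31 in Htr1a.

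Animal-to-animal variation agreed between probe sets for some receptors only. Deviations from the group means were correlated over the 17 arrays for these 9 pairs, with permutation within groups and adjustment over the 9. Chrm1 passed by both measures (r = 0.74, adjusted permutation p = 0.0071; rho = 0.75, adjusted permutation p = 0.012), with r = 0.67 without the 2 arrays farthest from the median. Chrna4, Drd1 and Htr2c passed by Pearson's r alone (0.69, 0.54 and 0.72, each with an adjusted permutation p of 0.025), with adjusted permutation p-values of 0.13, 0.088 and 0.13 for rho. The r of Chrna4 rested on 2 arrays, without which it was 0.19, and that of Htr2c was 0.43 without 2 arrays. Htr1a gave r = 0.46 (adjusted permutation p = 0.14) and rho = 0.41 (adjusted permutation p = 0.23), and r = 0.15 without 2 arrays. Chrnb2 gave r = -0.0058 (adjusted permutation p = 0.98) and rho = 0.034 (adjusted permutation p = 0.90), and the remaining pairs did not pass.

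Around the receptors, 100 of 107 genes listed for transmitter handling and receptor signalling were measured. Of these 1 was called higher and 6 lower, 7% of 100, beside 3.97% of all genes and 5.58% of those above background. Their median difference was -0.034. By list, the share called was 0% for transporters, 4.76% for receptor kinases, arrestins and RGS proteins, and 7.69% for G protein subunits. It was 7.14% for synthesis and breakdown, and the same for phospholipase C effectors with G protein-gated potassium channels. For receptor accessory proteins it was 12.5%. Without the 5 choroid plexus-rich arrays none of the 100 was called in limma, where 113 genes of the whole array were called in place of 723 and all 7 kept an unadjusted p under 0.05. The counts without 1 animal ran from 4 to 9.

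Transmitter synthesis and breakdown held 1 call among 14 genes, Ache, the enzyme that ends acetylcholine signals. Undisturbed arrays ran from 8.49 through 8.80 to 8.95 and sleep-deprived arrays from 8.14 through 8.51 to 8.60, with all 8 sleep-deprived animals under the undisturbed mean (-0.25, SE 0.071, 1.19-fold lower, limma adjusted p = 0.044). The call was narrow: it was lost without any 1 of 11 animals (adjusted p up to 0.090), and without sleep-deprived replicate 5, which had the lowest Ache value and the highest 3′ minus 5′ control signal, the difference was -0.21. Maoa, which breaks down serotonin and noradrenaline, lay at -0.15 with all 8 animals under the undisturbed mean (adjusted p = 0.066), and Maob at 0.0048 (adjusted p = 0.98). Genes used by the transmitter neurons themselves were split by the background mark. Th, Tph1, Tph2, Chat and Hcrt, which serve synthesis or encode the transmitter, lay near background, at means of 4.28 to 5.73. Ddc (7.16), Dbh (7.31), Pnmt (7.73), Hdc (6.55) and the noradrenaline transporter gene Slc6a2 (6.45) lay above it, and none of these 10 was called. Of 9 transporters none was called and 7 were near background.

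Among 16 receptor accessory proteins 1 rose and 1 fell, or 12.5%, beside 3.97% of all genes and 5.58% of those above background. Both belong to a family of small surface proteins that bind nicotinic receptors, as do uncalled genes of the same list. Lypd6 fell from 8.83 ± 0.11 (SD, n = 9) to 8.59 ± 0.087 (SD, n = 8), with arrays from 8.70 to 8.98 and from 8.49 to 8.72 (-0.24, SE 0.049, 1.18-fold, limma adjusted p = 0.0082). It kept its call without any 1 animal (adjusted p up to 0.020). Its 2 dimmer probe sets were also lower, at -0.17 and -0.077, without passing, and the mean of all 3 did not pass (-0.16, adjusted p = 0.15 in limma). Lypd1 rose from 9.20 ± 0.073 (SD, n = 9) to 9.37 ± 0.11 (SD, n = 8), with arrays from 9.10 to 9.29 and from 9.26 to 9.57 (0.17, SE 0.047, limma adjusted p = 0.041). That call was lost without any 1 of 9 animals (adjusted p up to 0.082). It was kept in 7 of 14 alternatives other than leaving out 1 animal, and lost with median centring and the mean of all probe sets, among others. The dimmer Lypd1 probe set gave 0.12 (limma adjusted p over all probe sets = 0.51). Lypd6b lay at -0.21 (adjusted p = 0.069) and Lynx1 at -0.035 (adjusted p = 0.77).

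**Figure D5:**
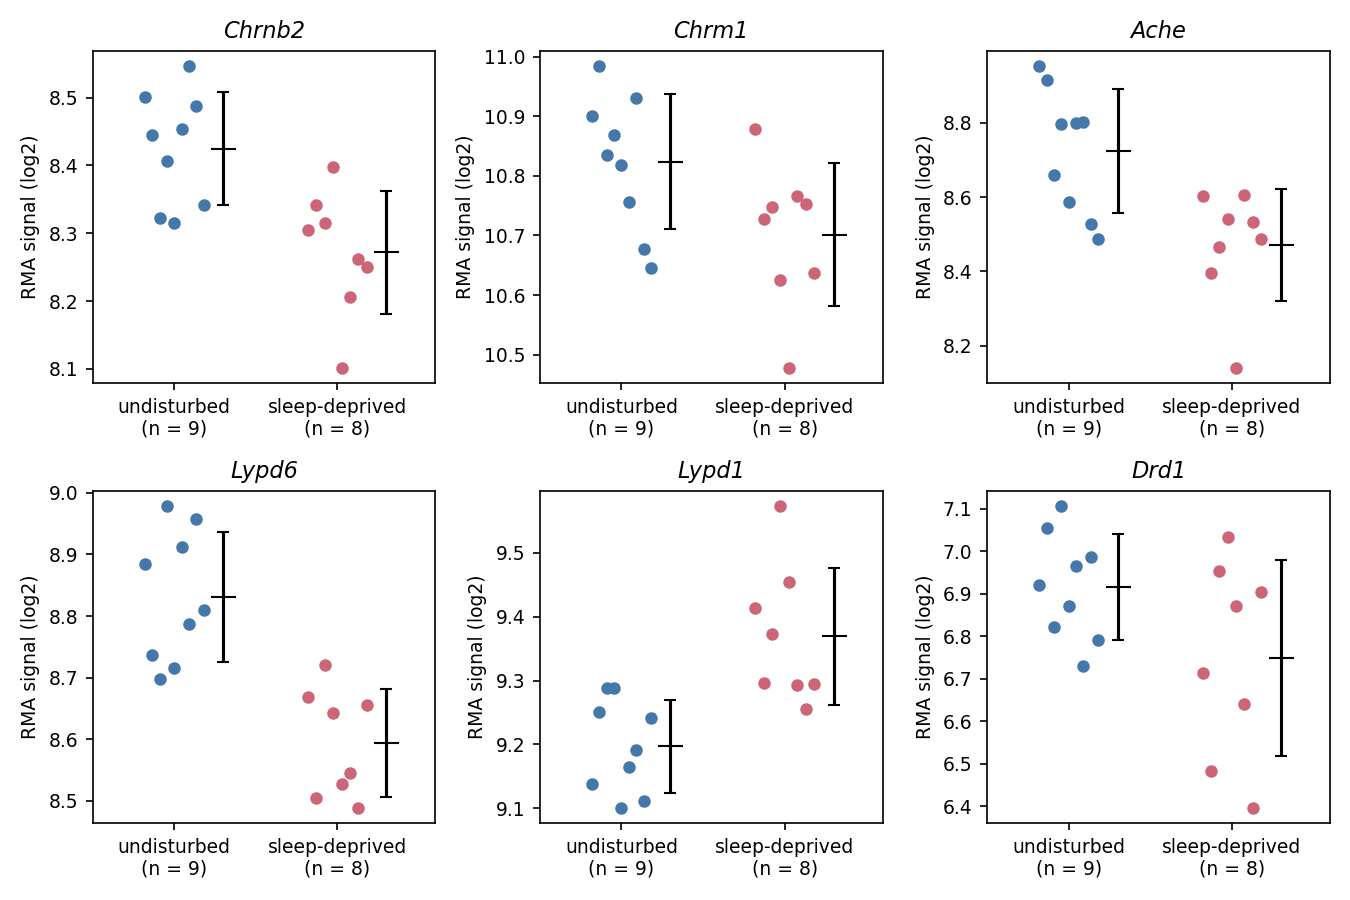
Deposited RMA signal (log2) by animal for the acetylcholine receptor genes Chrnb2 and Chrm1, for Ache, Lypd6 and Lypd1, and for the dopamine receptor gene Drd1, with the mean and SD of each group (black). Ache and Lypd6 were called lower and Lypd1 higher after sleep deprivation, Chrnb2, Chrm1 and Drd1 were not called, and the groups overlap in each of the 6.

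Further down the signalling chain, 2 of 26 G protein subunits fell, and 20 of the 26 had negative differences. Of these 26 genes 23 were above background, where 7232 of 11998 genes were negative. Gnb4 fell by 0.19 on the log2 scale (SE 0.045, limma adjusted p = 0.020); its 2 dimmer probe sets lay at -0.074 and 0.020 and did not pass. Gnb5, a beta subunit that pairs with RGS proteins, fell by 0.14 without overlap between the groups (SE 0.037, adjusted p = 0.032), a call lost without any 1 of 9 animals (adjusted p up to 0.064) and after quantile normalization (-0.10, adjusted p = 0.10). The stimulatory alpha subunit gene Gnas lay at -0.055 (adjusted p = 0.54), and Gnai1, an inhibitory one used by the receptor of Htr1a, at -0.093 (adjusted p = 0.31).

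Of 21 receptor kinases, arrestins and RGS proteins, which switch receptors or G proteins off, Grk6 fell. Its undisturbed arrays ran from 9.04 through 9.25 to 9.38 and its sleep-deprived arrays from 8.80 through 9.00 to 9.16 (-0.25, SE 0.056, limma adjusted p = 0.016), a call kept without any 1 animal (adjusted p up to 0.036). A probe set of nearly the same mean signal (9.08 against 9.12) gave -0.068 (limma adjusted p among probe sets = 0.48); the 2 were not separated (adjusted p of their difference = 0.14). Of 14 phospholipase C effectors and G protein-gated potassium channels, Kcnj3, a channel subunit that receptors such as that of Htr1a open, fell by 0.32 on the log2 scale (SE 0.062, limma adjusted p = 0.0053), and did not pass when its probe sets were averaged (-0.16, adjusted p = 0.10). Its 3 dimmer probe sets lay at -0.24, -0.083 and -0.0029, and none passed in limma over all probe sets. Its partner genes Kcnj6 and Kcnj9 lay at 0.12 (adjusted p = 0.44) and -0.081 (adjusted p = 0.46).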

How the data were processed

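Hippocampal RNA of 17 mice, 8 sleep-deprived and 9 undisturbed, was measured on 1 array each; the groups and replicate numbers are those of the labels. The deposited values are log2 signals per probe set, summarised and normalized by the authors with RMA and the affy package, per the submitters' processing notes; no versions are given there, and base 2 is taken from the span of the values, 2.90 to 14.8. RMA brings the arrays to a common scale, so a shift common to most genes can be removed wholly or in part, and it compresses dim differences. The deposited distributions were not identical, with array medians of 6.14 to 6.22. Over all genes near background the median difference was 0.040, and 0.0093 after quantile normalization. Over those above background it was -0.023, and 0.0022 after quantile normalization. Arrays have no depth; their number limits the precision. No 2 arrays were identical (highest correlation 0.998).

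Of 45101 probe sets 64 controls were left out; 34945 carried 1 symbol in the platform annotation, 932 several and 9160 none. Group means were compared with limma 3.58.1 (lmFit, eBayes) under R 4.3.3 over all 18193 genes, or all 45037 probe sets, with Benjamini-Hochberg adjustment and a threshold of 0.05. Further probe sets were tested as per-array differences from the brightest. The planned pooled correlation of Htr2c with choroid plexus markers was replaced by that within 12 arrays, since the arrays fell into 2 sets. Its permutation took both groups together, and the planned correlation within each group is not given. Permutation tests used Python 3.11.15, exact or with 100000 resamples. The fit was tested on simulated data.

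Receptor genes were named with per-group values where called, at an unadjusted p under 0.05, brightest in their symbol family, or with a called or differing probe set; of each pathway list up to 6 called genes were named, and further genes and values were chosen after they were seen. The receptors, lists and tests were chosen with earlier results of these data known. Alternatives were normalizations, filters, probe set rules, covariates, tests, thresholds, a replicate block and animals left out. Of 8 pairs of same-numbered animals 3 correlated over 0.1. With the replicate number as a block 913 genes of the whole array were called, in place of 723.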

Additional observations from a re-analysis of the deposited data

Results flagged for a closer look

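In 98 groups of arrays (47 genes and 2 array measures, in both groups) a single animal stood apart from the rest 7 times by Dixon's test, which chance alone does in about 5% of groups. Among receptor genes, Chrna3 was high in undisturbed replicate 5 (5.77, next 5.44), Hrh4 in sleep-deprived replicate 7 (4.47, next 4.27) and Htr6 in sleep-deprived replicate 3 (5.41, next 5.20), while Htr6 was low in undisturbed replicate 1 (4.79, next 5.05). These 3 genes were near background. Htr2c was low in sleep-deprived replicate 2 (9.01, next 9.30). Ache was low in sleep-deprived replicate 5 (8.14, next 8.40), the animal whose 3′ minus 5′ control signal was high (0.417, next 0.264). Without that animal the Ache difference was -0.21 (limma adjusted p = 0.090), and with the control signal as a covariate over all 17 arrays it was -0.25 (limma adjusted p = 0.049).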

How the results depend on the processing

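Htr1a was called higher under every alternative run, with differences of 0.29 to 0.34 (adjusted p = 0.00017 to 0.025), and it was the only receptor gene called higher in each. The count of receptor genes called lower was 0, and 1 (Chrnb2) after median centring, without genes near background, in an exact rank-sum test and at an adjusted p under 0.10; with 1 animal left out it was 0 to 1. Receptor probe sets called numbered 2 to 3 and those differing from the brightest 0. Of the 100 pathway genes 7 were called, 3 with the most variable probe set, 4 with choroid plexus markers as a covariate, 2 and 11 at adjusted p thresholds of 0.01 and 0.10, 4 to 9 with 1 animal left out, and 0 without the 5 choroid plexus-rich arrays, an alternative added after the data were seen that leaves 7 and 5 animals.

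Single genes were followed through the alternatives for 20 receptor genes and the called pathway genes. Among these, signs turned for Adra2c (-0.0040 after median centring), Hcrtr2 (-0.070 without the choroid plexus-rich arrays), Gnb4 (0.020 with its most variable probe set) and Hrh1 (0.014 with the mean of all probe sets, 0.046 with the most variable, 0.015 with array weights). With 1 animal left out Hrh1 ran from -0.058 to 0.016 and Chrna4 from -0.080 to 0.022. Other receptor genes near background turned too. Of 22 such genes 19 were positive, and 12, 12 and 13 after quantile normalization, cyclic loess and median centring. The relation of Htr2c to Ttr alone was r = 0.14 (permutation p = 0.67), against -0.039 for the marker mean. The cause of these changes was not tested. With the replicate number as a block, which the labels do not say marks a pair, 1 receptor gene was called higher, 0 lower, 2 receptor probe sets and 8 pathway genes, and Htr1a was at 0.31 (adjusted p = 0.0046); same-numbered animals correlated from -0.159 to 0.393, and 1 of 8 matched its own number best.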
